A study of Mus musculus with 8 samples.

Results

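The genes described are the subunits and regulators of the proteasome, taken from the count table as every protein-coding gene whose symbol starts with Psm, a letter from a to g and a digit. The rule found 50 of the 39179 genes listed, and 46 of them passed the filter on low counts, among 13626 genes tested. All libraries are mouse polyA RNA from epithelial pancreatic cancer cells of a mixed FVB/B6 background, sorted by their green label after 72 h of growth beside red-labelled pancreatic stellate cells in 0.5% dialyzed serum. All share 1 genotype, which includes p48Cre, ROSA_rtTAL+ and p53L+, with Cre driven from a pancreatic progenitor gene and a tetO transgene under the rtTA activator. Whether doxycycline, the drug that switches on such an activator, was present is not given in the sources used here, nor is the number of lines or clones. In 4 of the libraries the co-cultures were given a neutralizing antibody against SHH, the secreted ligand sonic hedgehog, at 20 µg/mL, and in the other 4 they were not. The labels give 4 biological samples per arm. No control antibody is named.

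The proteasome degrades proteins that carry ubiquitin. Its 20S core is a barrel of α rings around β rings, and the β subunits encoded by Psmb5, Psmb6 and Psmb7 cut the substrate. The 19S particle caps the barrel. Its base holds ubiquitin receptors and the ATPases that unfold substrates, and its lid removes ubiquitin. Interferon induces replacement catalytic subunits, encoded by Psmb8, Psmb9 and Psmb10, which form the immunoproteasome and favour peptides for class I antigen presentation. When proteasome activity is short, the transcription factor NRF1, encoded by Nfe2l1, raises the subunit genes together.

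The libraries held 10009711 to 15733280 counts, and every antibody library was deeper than every library without antibody. Replicate 1 without antibody stood apart, with a chi-square per degree of freedom of 9.06 to 11.2 against the other libraries of its arm, which differed among themselves by 1.77 to 4.54. Replicates 1 and 4 of the arm without antibody were left out together as an alternative. That fit keeps replicates 2 and 3 of the arm, its most alike pair (1.77). It called 2263 genes, against 1144 with all libraries, so calls gained in it are no independent support. The labels give no batch or date. Epithelial markers (7 of 7 tested, among them keratins) summed to between 6810 and 7802 CPM, which are counts scaled for library size. The 12 stellate and fibroblast markers summed to between 25.9 and 52.9 CPM, with Col1a1 and Col1a2 the most abundant and Dcn and Lum at 0 counts in every library. Among the markers of both lists 2 were called. Pdgfra, of the stellate list, was lower with antibody, at 2.78 ± 0.489 against 4.97 ± 0.888 CPM (SD, n = 4 each; log2 fold change -0.84, edgeR adjusted p = 0.00271). The other stellate genes tested had positive log2 fold changes and were not called: Col1a1 (0.36), Col1a2 (0.47), Col3a1 (0.66) and Pdgfrb (0.61). Epcam, of the epithelial list, was higher, at 24.99 ± 1.636 against 20.57 ± 1.496 CPM (SD, n = 4 each; log2 fold change 0.28, edgeR adjusted p = 0.022). The 7 leukocyte markers summed to between 4.31 and 6.11 CPM, and Emr1 and Cd3e were among those with 0 counts throughout. Most of that sum was Cd68, at 5.05 ± 0.641 CPM with antibody and 4.60 ± 0.997 without (SD, n = 4 each). The 4 endothelial markers summed to between 11.3 and 14.3 CPM, mostly Cdh5, and the 4 acinar markers to between 2.95 and 5.81 CPM. No gene of these lists was called. The part of depth and of other cells in the results was not tested.

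Proteasome transcripts differed little between the arms. Of the 46 members tested, 1 was lower with antibody, Psmd8, a lid subunit, and none was higher (quasi-likelihood test of edgeR, p under 0.05 after Benjamini-Hochberg adjustment). Over all genes tested, 8.4% were called, 4.53% as higher and 3.87% as lower, so the member count of 2.17% was below that background. At an unadjusted p under 0.05 there were 2 members higher (Psma1 and Psme1) and 8 lower of 46, where 11% and 10.5% of all genes tested were, while DESeq2 called 2 as lower and limma voom 1, with none higher in either. The median log2 fold change of antibody over no antibody was -0.03 over the members, against 0.00 over all genes tested, and 16 of 46 values were positive (34.8%, against 48.5% of all genes).

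The precision of these values bounds what was not called. The median standard error was 0.05 on the log2 scale over members and 0.07 over all genes. For 37 of the 46 members the 95% interval of the fold change lay within 1.2-fold in both directions. The widest intervals belonged to Psme2 and Psmg4, and they reached 1.46-fold and 1.33-fold. The levels also varied little between libraries of an arm, with a median coefficient of variation of 3.57% with antibody and 5.76% without, against 5.28% and 8.35% over all genes.

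**Figure D1:**
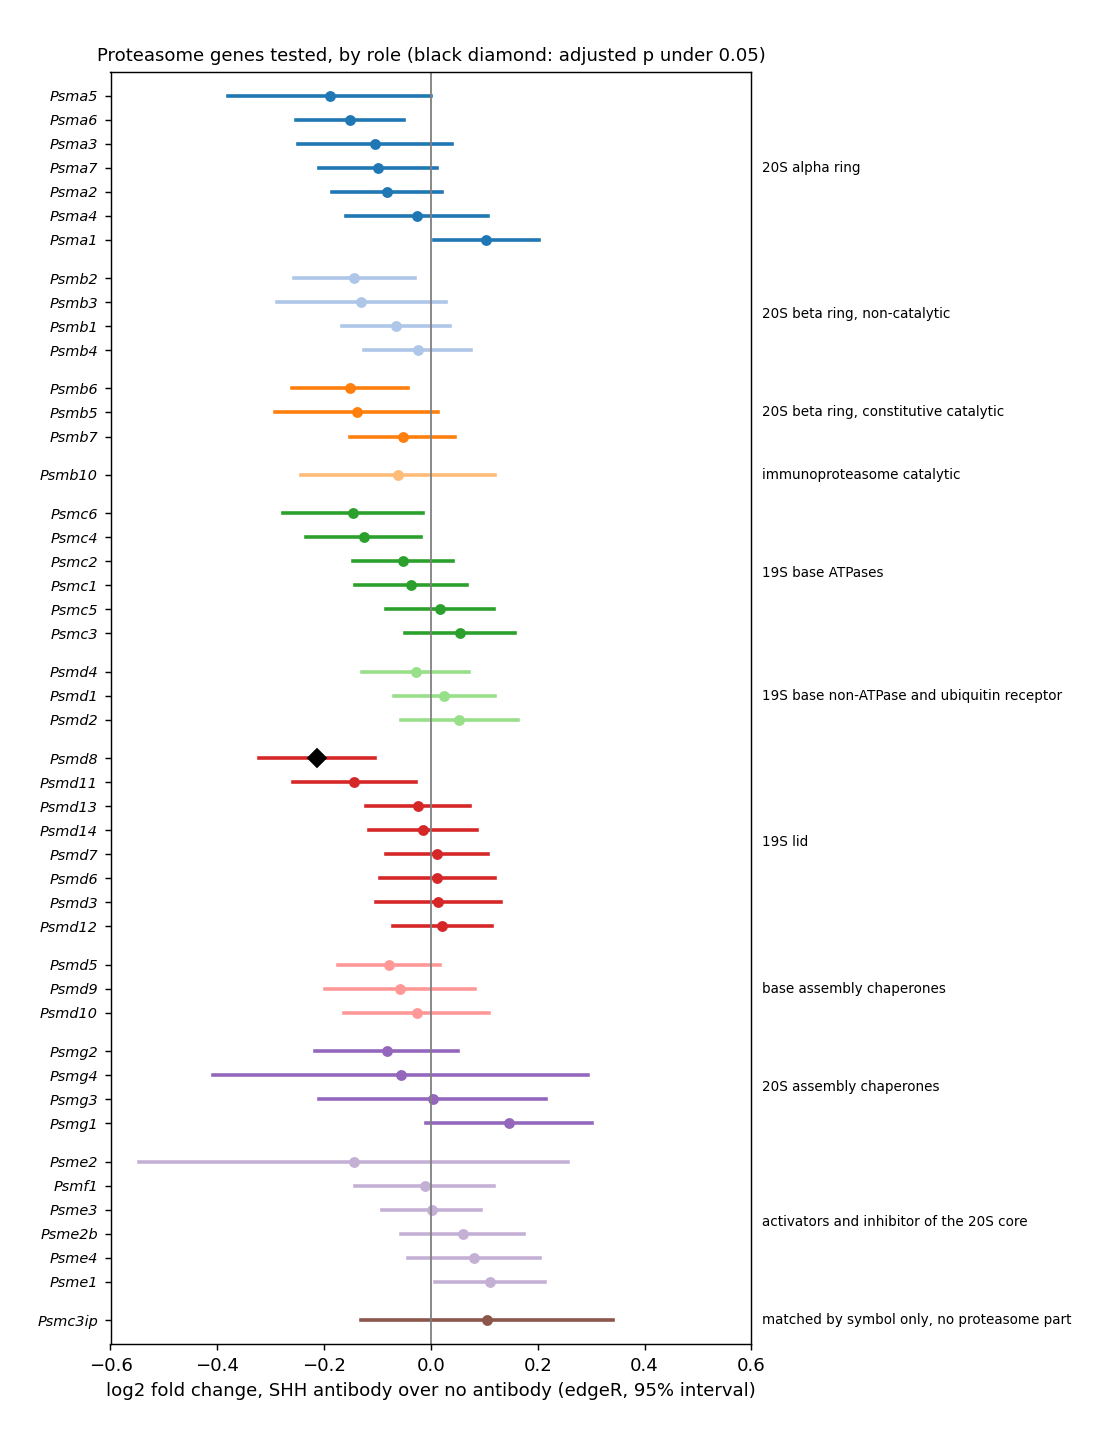
Log2 fold change (horizontal axis, antibody over no antibody) of the 46 members tested, grouped by role, with points for the estimates of edgeR and lines for 95% intervals. Psmd8 is the 1 member called, and most intervals of 20S core genes sit left of 0 or across it.

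Psmd8 encodes RPN12, a subunit of the lid (ENSMUSG00000030591, chromosome 7, 29174188 to 29180701, minus strand, GRCm38). It stood at 168, 167, 169 and 165 CPM in antibody replicates 1 to 4 and at 190.4, 210.4, 200.1 and 175 CPM without antibody. Every antibody library lay below every other library, and the libraries without antibody were far more scattered. The means were 167 ± 1.58 and 194 ± 15.1 CPM (SD, n = 4 each), a log2 fold change of -0.21 ± 0.05 SE (edgeR adjusted p = 0.0115). The call held in each of the 8 fits without 1 library (adjusted p at most 0.0475). With the deposited RPKM in place of counts it was lost, at a change of -0.20 with either pseudocount, 1 or 0.1 (limma adjusted p = 0.058 in both).

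The other 7 subunits of the lid tested did not pass. Psmd11, a scaffold subunit (RPN6), stood at 81.05, 83.9, 88.5 and 86.8 CPM with antibody and at 84.3, 95.9, 101.5 and 94.6 without. Replicate 1 without antibody lay among the antibody libraries, and the difference was -0.14 ± 0.06 SE on the log2 scale (edgeR adjusted p = 0.121). Without that library it was called as lower (-0.19, edgeR adjusted p = 0.00781). Psmd14, the deubiquitinase of the lid, was at 167 ± 0.717 and 168 ± 10.9 CPM (SD, n = 4 each; log2 fold change -0.01). The remaining lid genes, Psmd3, Psmd6, Psmd7, Psmd12 and Psmd13, had changes between -0.02 and 0.02. The lid as a group had 4 positive and 4 negative values with a median of 0.00.

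In the base of the 19S particle none of the 6 ATPase genes, Psmc1 to Psmc6, was called by edgeR, DESeq2 or voom, and 2 had an unadjusted p under 0.05. One of these was Psmc4, which stood at 107, 109.5, 109.6 and 106 CPM with antibody and at 113, 131.5, 112.5 and 115 without. The arms did not overlap, but replicate 2 without antibody lay apart from the other 3, and the change of -0.13 ± 0.05 SE did not pass (edgeR adjusted p = 0.153). It was called as lower when the no-antibody replicates 1 and 4 were both left out (-0.18, edgeR adjusted p = 0.0119). Without replicate 2 of that arm the change of Psmc4 was smaller, at -0.07 (edgeR adjusted p = 0.439). The other was Psmc6, with 149, 148.5, 147.5 and 156 CPM with antibody against 187, 149, 148.5 and 179 without (log2 fold change -0.15 ± 0.06 SE, edgeR adjusted p = 0.172). Only replicates 1 and 4 without antibody were high for Psmc6, and replicates 2 and 3 of that arm lay within the range of the antibody libraries. Psmc3 (0.05) and Psmc2 (-0.05) had 95% intervals that included 0.

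The 3 remaining base genes were the scaffold genes Psmd1 (log2 fold change 0.03) and Psmd2 (0.05) and the ubiquitin receptor gene Psmd4 (-0.03). None was called, none had an unadjusted p under 0.05 with edgeR, and neither DESeq2 nor voom called one. Psmd2 was at 265 ± 4.06 CPM with antibody and 255 ± 20.4 CPM without (SD, n = 4 each). Over all 17 genes of the 19S particle the median was -0.01, with 8 values above and 9 below 0. The count below 0 lay between 9 and 13 over the alternatives, with 13 of 17 (median -0.02) when replicate 1 without antibody was left out.

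The 14 widely expressed genes of the 20S core leaned one way without being called. Of them 13 had a negative log2 fold change and 1 a positive one, with a median of -0.10, but 0 were called by edgeR and 0 by voom, while DESeq2 called Psma6. At an unadjusted p under 0.05 there were 4 lower and 1 higher, where 10.5% and 11% of all genes were. The count of negative values was between 11 and 13 under every alternative of scaling, filter, tool and left-out library, and the median lay between -0.12 and -0.06. It was -0.06 without replicate 1 of the arm without antibody, and -0.06 without replicates 1 and 4 of it. Genes of 1 particle are not independent of each other, and the direction was not tested as a group.

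Among the α ring genes Psma6 had the smallest p (ENSMUSG00000021024, chromosome 12, 55384222 to 55418454, plus strand, GRCm38). It stood at 181.5, 183, 183.5 and 173 CPM with antibody and at 214, 202, 186 and 199 CPM without. The arms did not overlap, with replicate 3 without antibody nearest to the antibody libraries, and the change was -0.15 ± 0.05 SE (edgeR adjusted p = 0.0563). DESeq2 called it as lower (adjusted p = 0.0331), as did edgeR when that replicate 3 was left out (-0.19, adjusted p = 0.0263). Psma1 was the 1 core gene with a positive value, 138 ± 1.85 against 128 ± 6.62 CPM (SD, n = 4 each; log2 fold change 0.10 ± 0.05 SE, edgeR adjusted p = 0.206). It was called as higher when replicates 1 and 4 without antibody were both left out (0.16, edgeR adjusted p = 0.00617). Psma5 (-0.19 ± 0.09 SE) and Psma7 (-0.10 ± 0.05 SE) did not pass (edgeR adjusted p of 0.233 and 0.296).

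Of the non-catalytic β genes Psmb2 had the smallest p. Its values were 94.3, 105.6, 100.8 and 97.45 CPM with antibody and 112, 117.5, 112 and 99.3 without. Replicate 4 without antibody fell among the antibody libraries, and the change of -0.14 ± 0.05 SE did not pass (edgeR adjusted p = 0.118). Without that library it was called as lower (-0.19, edgeR adjusted p = 0.024). Psmb3 (-0.13), Psmb1 (-0.07) and Psmb4 (-0.02) had adjusted p of 0.344, 0.475 and 0.827 (edgeR).

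**Figure D2:**
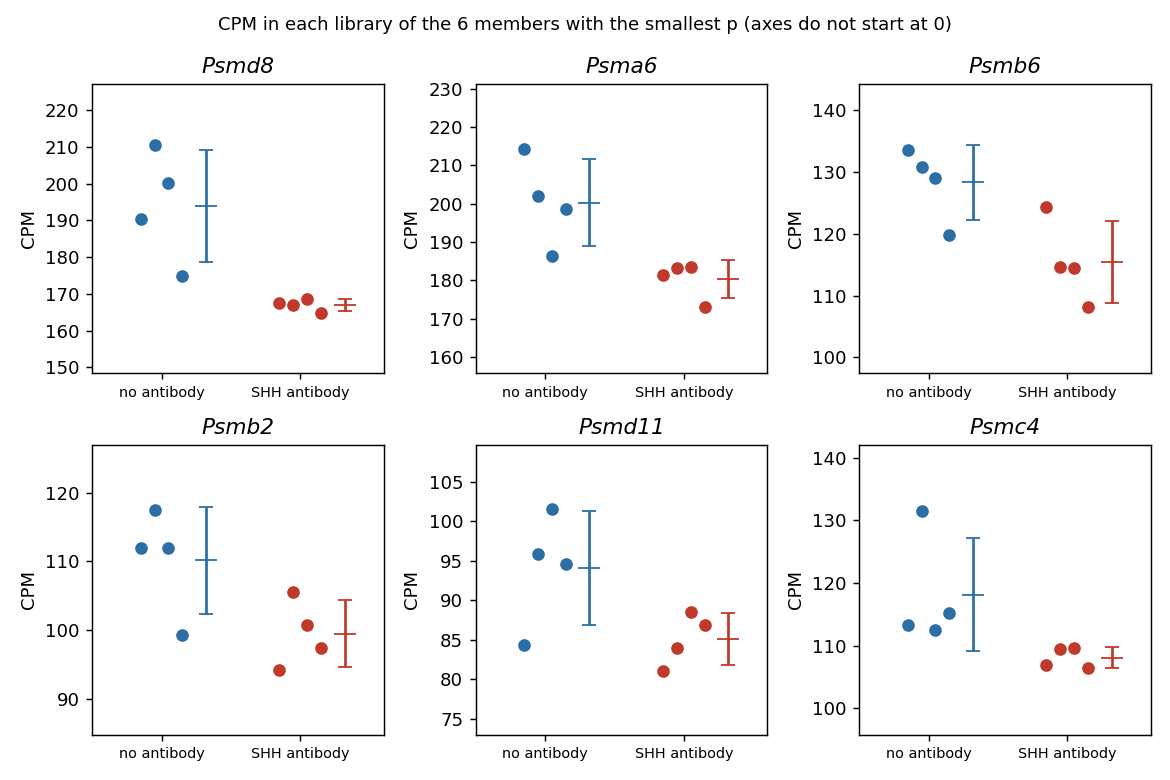
CPM (vertical axes, not starting at 0) of the 6 members with the smallest p in each library, with points for libraries in the order of their replicate number and the mean ± SD beside them. Psmd8, Psma6 and Psmc4 show no overlap of the arms, while Psmb6, Psmb2 and Psmd11 do overlap.

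The constitutive catalytic genes were well expressed in both arms. Psmb6, which encodes the caspase-like subunit β1, stood at 124, 114.6, 114.5 and 108 CPM with antibody and at 134, 131, 129 and 119.7 without. Antibody replicate 1 and replicate 4 without antibody crossed, and the change of -0.15 ± 0.05 SE did not pass (edgeR adjusted p = 0.0755). Leaving out either of these libraries gave a call as lower, at -0.19 in both (edgeR adjusted p = 0.0393 without the first, 0.033 without the second). Psmb5, which encodes the chymotrypsin-like subunit β5 that proteasome inhibitors target, stood at 39.0, 40.9, 38.0 and 35.0 CPM with antibody and at 39.6, 47.2, 45.8 and 37.0 without. Replicates 2 and 3 without antibody were high, and its replicates 1 and 4 lay within the range of the antibody libraries (log2 fold change -0.14 ± 0.07 SE, edgeR adjusted p = 0.282). With the latter 2 libraries left out Psmb5 was called as lower (-0.28, edgeR adjusted p = 0.00272), as were Psmb6 (-0.17) and Psmb2 (-0.21). For Psmb5 that fit keeps only the high libraries of the arm, so a larger change is built into it. Without replicate 2 of that arm the change of Psmb5 was smaller, at -0.09 (edgeR adjusted p = 0.572). Psmb7, which encodes the trypsin-like subunit β2, stood at 146, 146, 144 and 135 CPM against 152, 150.2, 139.9 and 152 CPM (log2 fold change -0.05 ± 0.05 SE, edgeR adjusted p = 0.576). The arms overlapped for Psmb7.

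Of the interferon-induced catalytic genes Psmb8 and Psmb9 were at or near 0, while Psmb10 was expressed. Psmb8, the β5i gene (ENSMUSG00000024338, chromosome 17, 34197721 to 34201454, GRCm38), was counted 2, 1, 0 and 0 times in antibody replicates 1 to 4 and 1, 1, 0 and 1 times in the other arm. Psmb9, the β1i gene (ENSMUSG00000096727, chromosome 17, 34181988 to 34187764, GRCm38), had 1 count in antibody replicate 1, 1 in replicate 3 without antibody and 0 in the other libraries. All these values lie at or under 3 counts, which correspond to between 0.191 and 0.30 CPM, so neither gene was tested and no fold can be given. Both lie close together on chromosome 17, where the annotated spans of Psmb9 and the peptide transporter gene Tap1 overlap by 212 bases on opposite strands. Tap1 itself was too low to be tested.

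Psmb10, the β2i gene (ENSMUSG00000031897, chromosome 8, 105935728 to 105938392, GRCm38), stood at 15.1, 13.7, 15.9 and 14.7 CPM with antibody and at 15.3, 16.8, 16.3 and 13.97 without. The arms overlapped (log2 fold change -0.06 ± 0.09 SE, 95% interval -0.24 to 0.12, edgeR adjusted p = 0.74). Per length, as RPKM (reads scaled for gene length and library size), it made up 9.03% ± 0.61 of the Psmb10 and Psmb7 pair with antibody and 9.14% ± 0.87 without (SD, n = 4 each). Psmb8 made up 0.0386% ± 0.050 and 0.0472% ± 0.0317 of its pair with Psmb5, and Psmb9 0.00661% ± 0.0132 and 0.00928% ± 0.0186 of its pair with Psmb6. The shares within each pair differed by less than the spread between libraries.

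**Figure D3:**
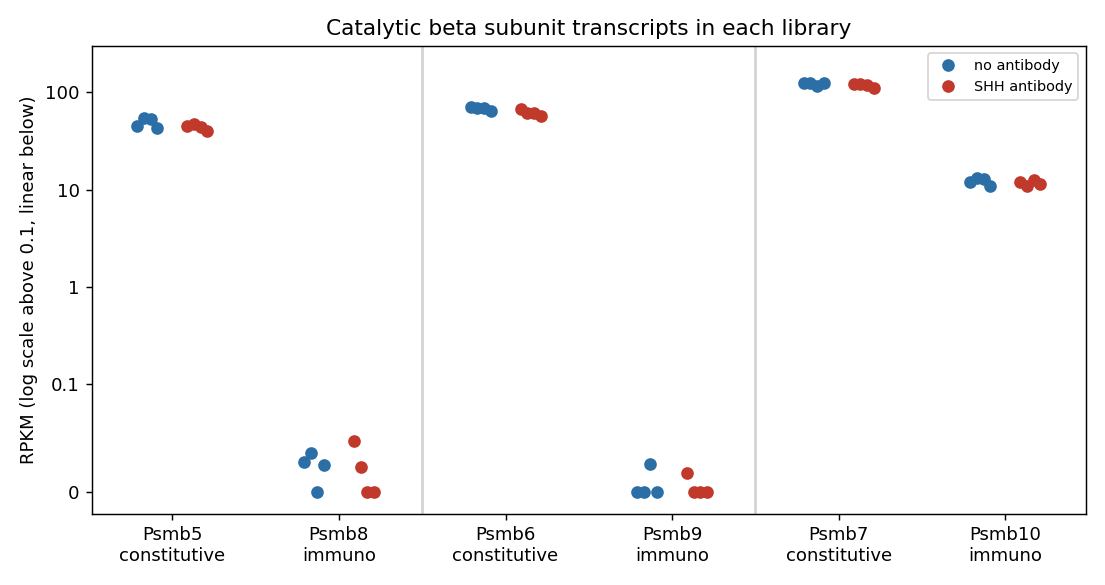
RPKM (vertical axis, logarithmic above 0.1 and linear below) of the 3 constitutive catalytic genes, each beside its interferon-induced counterpart, with 1 point per library. Psmb8 and Psmb9 lie near 0 in all 8 libraries, Psmb10 near 12 RPKM, and the constitutive genes between 40 and 125 RPKM.

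The order of the catalytic genes by RPKM was Psmb7 (118 ± 4.79 with antibody and 122 ± 4.38 without), Psmb6 (61.8 ± 3.90 and 68.3 ± 2.92), Psmb5 (44.0 ± 2.93 and 48.5 ± 5.68) and Psmb10 (11.7 ± 0.767 and 12.2 ± 1.00; SD, n = 4 each). The ranges of neighbours in this order did not overlap within either arm, but the places of Psmb5, Psmb6 and Psmb7 are uncertain. Psmb5 and Psmb7 share 21.7% and 19.8% of their sequence windows with other genes (described with the copies). RPKM also depends on the gene length used, which was 1872 bases for Psmb6 and 1214 for Psmb7. The transcripts searched gave the opposite order, with 698 windows for Psmb6 and 1060 for Psmb7. The order of Psmb6 and Psmb7 under other lengths was not tested. The tissue-restricted genes were not expressed: Psma8, the testis form of an α subunit, had 0 counts in all libraries. Psmb11, the thymus form of β5, had 1 count in antibody replicate 3, 1 in replicate 2 without antibody and 0 elsewhere.

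The activators of the 20S core were not called by edgeR, DESeq2 or voom in any of 6 genes tested, and 1 had an unadjusted p under 0.05. This was Psme1, the α subunit gene of the interferon-induced activator PA28, at 66.7, 65.5, 67.0 and 63.4 CPM with antibody and at 60.6, 61.3, 62.3 and 59.3 without. Every antibody library was above every other library, and it was the 1 member for which this was so (2.17% of members, against 7.71% of all genes). The change was 0.11 ± 0.05 SE (edgeR adjusted p = 0.192). In the other direction 4 members (Psmd8, Psma6, Psmc4 and the assembly chaperone gene Psmd5) had arms that did not overlap, 8.70% of members against 6.56% of all genes.

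Psme3, the gene of the nuclear activator PA28γ, stood at 192.5, 189, 196 and 187 CPM with antibody and at 182, 196, 195 and 191 without. The arms overlapped fully, and the 95% interval of the log2 fold change reached from -0.09 to 0.09. Psme4, the gene of the activator PA200, stood at 203, 219, 231 and 226 CPM against 191, 195, 209 and 235 CPM. Replicate 4 without antibody was the highest of all, and the change was 0.08 ± 0.06 SE (edgeR adjusted p = 0.473). Psmf1, which encodes the inhibitor PI31, stood at 36.9, 35.1, 40.4 and 36.4 CPM against 34.8, 39.1, 37.0 and 39.2 CPM (log2 fold change -0.01 ± 0.06 SE, edgeR adjusted p = 0.943). Its arms overlapped.

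Assembly chaperones did not pass either. None of the 4 genes of 20S assembly and none of the 3 genes of base assembly was called by edgeR, DESeq2 or voom, and none had an unadjusted p under 0.05 with edgeR. Psmg1 had the largest positive value of any member, 22.6 ± 1.27 against 20.4 ± 1.18 CPM (SD, n = 4 each; log2 fold change 0.15 ± 0.07 SE, edgeR adjusted p = 0.265). Its partner Psmg2 was at -0.08, Psmg3 at 0.00 and Psmg4 at -0.06. Psmg4, at 3.82 ± 0.478 and 3.94 ± 0.889 CPM, was too low for a narrow interval. The base chaperone genes Psmd5, Psmd9 and Psmd10 were at -0.08, -0.06 and -0.03. Psmc3ip, which matches the symbol rule but encodes a meiotic recombination factor and no proteasome part, was at 0.11 ± 0.11 SE (edgeR adjusted p = 0.652).

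Summed over genes, the core reached 1542 ± 40.7 CPM in the antibody arm and 1624 ± 58.4 CPM in the other, and the 19S particle at 2795 ± 24.4 and 2847 ± 71.0 CPM (SD, n = 4 each). The 14 core genes summed to 1568, 1559, 1559.7 and 1481 CPM with antibody and to 1697, 1644, 1571 and 1583 CPM without. The arms did not overlap, but the highest antibody library (1568) and the lowest other library (1571) nearly met. The 17 genes of the 19S particle summed to 2823, 2791, 2802 and 2764 CPM and to 2752, 2921, 2870 and 2845 CPM, and these ranges overlapped. The ratio of cap to core was lowest in replicate 1 without antibody, at 1.62, and between 1.78 and 1.87 in the other 7 libraries. The share of all counts that fell on members was 0.517% ± 0.0086 in the antibody arm and 0.526% ± 0.0082 in the other (SD, n = 4 each). These sums were given no test.

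**Figure D4:**
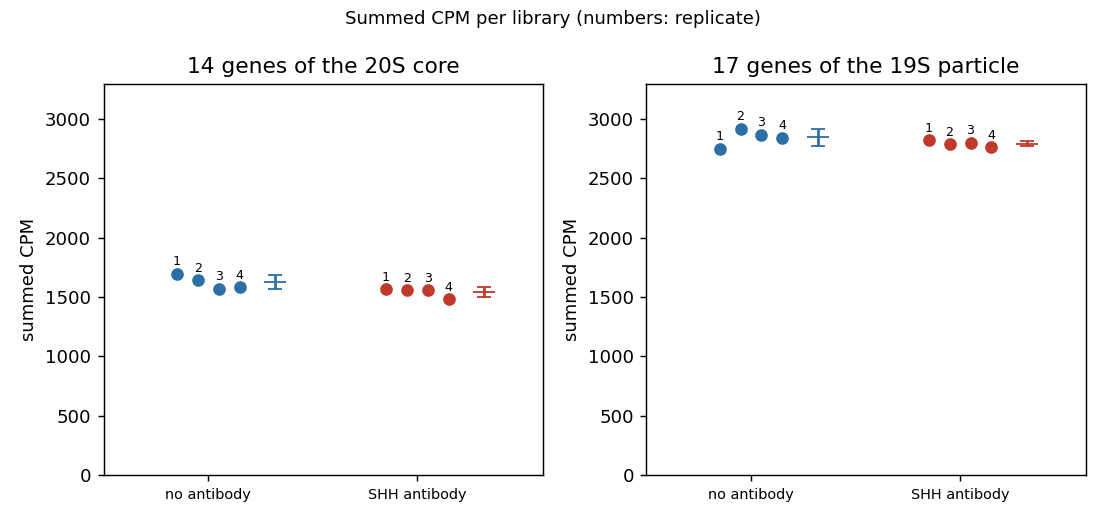
Summed CPM (vertical axes from 0) of the 14 core genes and of the 17 genes of the 19S particle in each library, with the replicate number above each point and the mean ± SD beside it. Replicate 1 without antibody has the highest core sum (1697) and the lowest sum of the 19S particle (2752).

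Several members share sequence with other genes, which bears on their level. Windows of 101 bases, the read length, were taken from the transcripts of all 50 members. They were sought on either strand in the transcripts of every other gene (GENCODE M21, GRCm38). No window was shared for 30 members, at least 10% were shared for 9, and over 50% for 1. How the authors' counting treated reads that fit several genes is not given in the sources used here. Levels of these 9 members, Psmb5 and Psmb7 among them, are therefore uncertain, and so is that of Psma4, with 6.5% shared (described below). The shared windows of Psmb7 all lie in Nek6, a gene whose annotated span overlaps that of Psmb7, and not in a copy elsewhere. Among the 14 core genes the median level was 87.0 RPKM for the 9 with under 10% shared windows and 11.9 RPKM for the other 5, with ranges that overlapped (18.3 to 188 and 8.26 to 120).

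Psme2, the gene of the β subunit of PA28, shares 40.0% of its windows with Psme2b, a copy on chromosome 11 (48945354 to 48946190, GRCm38), of whose windows these are 51.7%. Psme2 stood at 2.38, 2.92, 3.55 and 2.75 CPM with antibody and at 4.05, 2.10, 3.09 and 3.36 without, a scatter wider than the difference (edgeR adjusted p = 0.727). Psme2b stood far higher, at 46.1, 44.6, 45.0 and 44.1 CPM against 40.5, 44.4, 42.9 and 44.7 CPM (log2 fold change 0.06 ± 0.06 SE). The sum of both was 47.8 ± 0.796 CPM with antibody and 46.3 ± 1.44 without (SD, n = 4 each), with overlapping ranges. Psma3, an α subunit gene, had 361 to 580 counts, while Gm13835, a pseudogene with which it shares 20.0% of its windows, had 1525 to 2695. Together they stood at 199 ± 5.62 and 209 ± 27.2 CPM. Psma5, another α subunit gene, had 152 to 281 counts, and Gm8394, which holds part of the 27.1% of Psma5 windows found elsewhere, had 956 to 1851. Together they stood at 129 ± 3.54 and 125 ± 20.0 CPM (SD, n = 4 each), so that the sum and Psma5 alone (log2 fold change -0.19) pointed in opposite directions. Psma4 shares 6.5% of its windows, part of them with Gm6542, a pseudogene. Psma4 had 374 to 678 counts and Gm6542 had 302 to 485. Together they stood at 73.7 ± 1.52 and 73.4 ± 3.44 CPM (SD, n = 4 each), with overlapping ranges. Psma4 alone had a log2 fold change of -0.03. Restricted to the 37 tested members with under 10% shared windows, Psmd8 was still the 1 gene called and the median was -0.03. Psma4 was kept among these 37 and among the 9 core genes with under 10% shared windows.

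**Figure D5:**
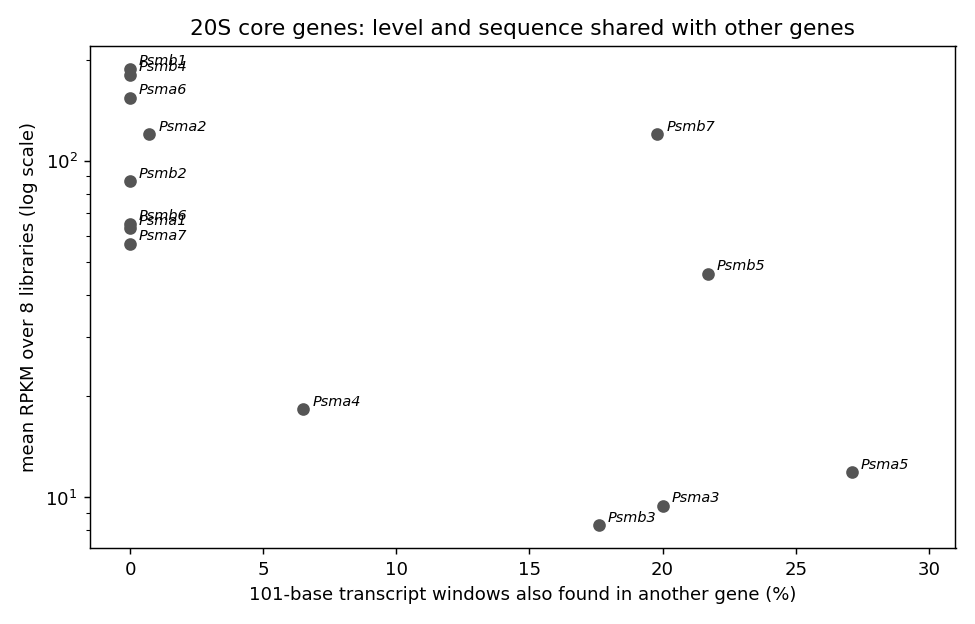
Mean RPKM over 8 libraries (vertical axis, logarithmic) of the 14 core genes against the percentage of their 101-base transcript windows found in another gene (horizontal axis). Psmb3, Psma3 and Psma5, each with 17.6% or more of windows shared, lie lowest, while Psmb7, with 19.8%, lies at 120 RPKM.

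The promoters of 4 members are shown. Psmd8 was called, Psma6 had the next smallest p, and Psmb5 and Psmb6 encode catalytic subunits. The promoters of Psmb5 and Psmb6 hold the letters bound by NRF1 and its relatives. Runs of Psmb8 and Psmb9 were also chosen but left out, because too many of their bases lay in annotated exons. Each run shown is the 250 bases before the RefSeq start (GRCm38.p6), 5′ to 3′ on the strand of the gene. In GENCODE M21, 28 bases of the Psmd8 run and 27 of the Psmb5 run lie in annotated exons. Capitals mark TGACNNNGC in Psmb5 and Psmb6 and CCAAT in Psma6, found on either strand, and Psmd8 holds neither. The positions are chr7:29180674-29180923 for Psmd8, chr12:55383972-55384221 for Psma6, chr14:54617996-54618245 for Psmb5 and chr11:70525107-70525356 for Psmb6.
Psmd8: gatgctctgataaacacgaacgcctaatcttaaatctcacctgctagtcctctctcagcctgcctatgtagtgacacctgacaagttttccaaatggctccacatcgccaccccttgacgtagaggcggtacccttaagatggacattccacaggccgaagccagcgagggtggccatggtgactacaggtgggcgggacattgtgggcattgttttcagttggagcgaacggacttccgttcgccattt
Psma6: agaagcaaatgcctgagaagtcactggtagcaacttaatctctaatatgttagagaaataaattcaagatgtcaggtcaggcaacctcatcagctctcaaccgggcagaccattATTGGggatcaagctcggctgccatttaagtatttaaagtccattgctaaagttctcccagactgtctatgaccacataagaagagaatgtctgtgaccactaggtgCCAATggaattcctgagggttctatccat
Psmb5: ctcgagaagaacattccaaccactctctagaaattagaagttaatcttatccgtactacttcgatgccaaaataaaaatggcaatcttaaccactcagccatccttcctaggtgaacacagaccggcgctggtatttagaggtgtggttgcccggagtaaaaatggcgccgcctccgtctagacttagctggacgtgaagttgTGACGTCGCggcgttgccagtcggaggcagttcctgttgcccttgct
Psmb6: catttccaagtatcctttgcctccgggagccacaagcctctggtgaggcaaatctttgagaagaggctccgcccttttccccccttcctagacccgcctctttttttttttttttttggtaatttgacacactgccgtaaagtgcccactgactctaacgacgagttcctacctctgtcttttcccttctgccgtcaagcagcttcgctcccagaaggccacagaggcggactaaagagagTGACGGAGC

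A promoter entry was matched for 42 of the 50 members. The NRF1 letters, TGACNNNGC on either strand, were found in 5 of them (11.9%), Psmb5, Psmb6, Psmc6, Psmd9 and Psmd12, against 10.2% of all 32851 windows of the same length. They begin 47 bases before the start in Psmb5 and 9 bases before it in Psmb6 (positions -47 and -9). CCAAT, the box bound by the trimer NF-Y, was found in 15 members (35.7%, against 33.8% of all windows), and in Psma6 it occurs at positions -136 and -29. GAAA, any 2 bases and GAAA again, the core of an interferon response element, was found in 3 (7.14%, against 2.98%), Psmb3, Psmd4 and Psmd9. TTCNNNGAA, the letters bound by STAT factors, was found in 2 (4.76%, against 7.02%), Psmb8 and Psmg1. All 4 motifs were sought on both strands, and in the members no match of one overlapped a match of another. Members were counted per gene, but the background was counted per promoter entry and was not restricted to genes expressed here. The percentages are therefore not of like units. A match is a description of the sequence, not a site.

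Of the other genes of the pathway, 49 were found in the table and 47 tested, of which 5 were higher and 3 lower (17%, against 8.4% of all genes; edgeR adjusted p under 0.05). The 11 genes of the transcription of subunits held 4 of the 8. Nfe2l1, the gene of NRF1 itself, fell from 356, 368, 381 and 376 CPM without antibody to 333, 322, 329 and 318 CPM. All antibody libraries lay below all others, and the log2 fold change of -0.19 ± 0.04 SE (edgeR adjusted p = 0.00914) kept its call in all 17 alternatives. Mafk, which encodes a small partner of NRF1 and NRF2, fell from 57.6 ± 2.55 to 50.3 ± 1.95 CPM (SD, n = 4 each; log2 fold change -0.19, edgeR adjusted p = 0.0283). Nfe2l2, the gene of NRF2, was not called (0.13 ± 0.05 SE, edgeR adjusted p = 0.11).

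The NF-Y subunit genes Nfyb (log2 fold change 0.22 ± 0.06 SE, edgeR adjusted p = 0.0256) and Nfya (0.16 ± 0.05 SE, edgeR adjusted p = 0.0477) rose, and Nfyc did not pass (-0.04). Nfya kept its call in 5 of 17 alternatives, Nfyb in 10 and Mafk in 11. Nfya lost it without any 1 library except replicate 1 without antibody (edgeR adjusted p between 0.0591 and 0.188) and with the replicate number as a block (0.0665, edgeR adjusted p). Nfyb lost it without antibody replicate 1, 3 or 4 or replicate 2 or 3 of the other arm (edgeR adjusted p between 0.0638 and 0.0881). Mafk lost it without antibody replicate 2, 3 or 4 or replicate 3 of the other arm (edgeR adjusted p between 0.066 and 0.127).

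Among shuttle factors and the segregase p97, 1 of 9 genes was called. Vcp, the gene of p97, stood at 97.8, 97.8, 97.01 and 92.8 CPM with antibody and at 75.7, 77.7, 90.1 and 92.8 without. Replicates 1 and 2 without antibody were low and its replicate 4 reached the antibody libraries (log2 fold change 0.19 ± 0.06 SE, edgeR adjusted p = 0.0471). The call was lost without any of the 4 antibody libraries or without replicate 1 or 2 of the other arm (edgeR adjusted p between 0.0694 and 0.139). Vcp kept its call in 8 of 17 alternatives, and DESeq2 called 0 of the 9 genes.

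Of 7 assembly and associated factors Zfand2a, a stress-induced gene whose protein AIRAP binds the proteasome, fell from 80.3 ± 3.01 to 69.4 ± 2.25 CPM (SD, n = 4 each; log2 fold change -0.21 ± 0.05 SE, edgeR adjusted p = 0.01). It lost the call without antibody replicate 3 (adjusted p = 0.0509, edgeR). Akirin2, the nuclear import factor of the proteasome, was not called (-0.10, edgeR adjusted p = 0.318), and neither was Pomp, the chaperone that matures the core (-0.01). None of the 5 genes of recognition and deubiquitination at the 19S particle was called by edgeR, DESeq2 or voom, and none had an unadjusted p under 0.05. Their smallest p belonged to Uchl5 (0.05, edgeR adjusted p = 0.63) and Adrm1 (0.07, edgeR adjusted p = 0.674). None of the 6 ubiquitin and ubiquitin-activating genes was called by these tools, and 1 had an unadjusted p under 0.05 with edgeR. Uba6, an activating enzyme gene, was at 0.07 (edgeR adjusted p = 0.504).

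Of 9 genes tested of class I peptide loading and interferon signalling, 2 rose. Ifngr2, a chain of the interferon gamma receptor, went from 67.2 ± 5.46 to 81.2 ± 0.79 CPM (SD, n = 4 each; log2 fold change 0.28 ± 0.05 SE, edgeR adjusted p = 0.00221) and kept its call in all 17 alternatives. Irf1, the transcription factor gene that acts on Psmb8 and Psmb9, went from 29.9 ± 1.32 to 35.4 ± 1.47 CPM (SD, n = 4 each). Its arms did not overlap (log2 fold change 0.25 ± 0.06 SE, edgeR adjusted p = 0.0153). Irf1 lost the call when antibody replicate 3 (adjusted p = 0.0501) or 4 (adjusted p = 0.066) was left out, and when the no-antibody replicates 1 and 4 were (adjusted p = 0.0533, edgeR in all). Psmb8 and Psmb9 stayed at or under 3 counts in both arms beside this.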

How the data were processed

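Strand-specific polyA libraries of 8 samples (4 per arm) were sequenced in paired reads of 101 bases, per the labels' protocols. Per the submitters' processing notes, CASAVA 1.8.2, TopHat2 2.0.9 and the build GRCm38 were used. The authors deposited raw counts per Ensembl gene and RPKM values. Over 12005 genes the authors' RPKM equalled the count over 1 gene length and the library's total. Which tool counted the reads, with which strand setting and rule for several matches, was not stated there.

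Counts were tested over all genes with edgeR 4.0.16 (R 4.3.3; TMM, filterByExpr, quasi-likelihood test, adjusted p under 0.05 by Benjamini-Hochberg). The model held the arm alone. Fold changes are antibody over no antibody, with standard errors from the F statistic. The procedure was checked on simulated counts. Floors of 3 counts cover counting error only.

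Members and gene lists were chosen with earlier results of these data known. Full values are given for the catalytic genes, Psme1 to Psme4, Psmf1, called members and the 6 members with the smallest p. Up to 4 genes per role and 2 per other list are named by p, except some items that are not reported here. Gm13835, Gm8394 and Gm6542, other members outside that rule, Nfe2l2, Nfyc and Pomp were named after their values were seen. Alternatives were RLE scaling, other filters, DESeq2 1.42.0, limma 3.58.1 (voom, or log2 of RPKM), the replicate block and left-out libraries.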

Additional observations from a re-analysis of the deposited data

Results flagged for a closer look

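A single library far from the other 3 of its arm was found in 6 of 92 checks (46 members in 2 arms), and chance flags about 1 in 20 such groups. Psmb1, a non-catalytic β gene, stood at 214.1 CPM in replicate 1 without antibody, above 193 to 195 CPM in the other 3. Psmb7 was low in replicate 3 of the same arm, at 139.9 CPM against 150.2 to 152 CPM. Psmc4 was high in its replicate 2, at 131.5 CPM against 112.5 to 115 CPM. Psmd2 was low in replicate 1 without antibody, at 224.7 CPM against 261.5 to 268 CPM, and in antibody replicate 4, at 258.5 CPM against 266 to 267 CPM. Psmd13, a lid gene, was also low in antibody replicate 4, at 91.48 CPM against 93.5 to 93.9 CPM.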

How the results depend on the processing

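Psmd8 was called as lower in 15 of 17 alternatives. The count of members called as lower was 1 with all libraries, 2 with DESeq2, 0 on log2(RPKM + 1) and 0 on log2(RPKM + 0.1), and between 1 and 3 in the fits without 1 library. No member was called as higher in these fits. Without replicates 1 and 4 of the arm without antibody, 6 members were called as lower (Psmb2, Psmb5, Psmb6, Psmc4, Psmd8 and Psmd11) and 1 as higher (Psma1), where 8.21% and 8.06% of 13914 genes were. Psmb5 then changed by -0.28 (edgeR adjusted p = 0.00272). The median over members lay between -0.051 and -0.021 in the fits without 1 library. Over all genes 1144 were called, 675 and 670 on log2(RPKM + 1) and log2(RPKM + 0.1), 2263 without both replicates 1 and 4, and between 679 and 1485 without 1 library. The replicate number as a block gave 1 member called as lower, 0 as higher, and 1005 genes in all. Libraries of the same number did not deviate together (correlations between -0.04 and 0.01). Such a check cannot decide whether samples of the same number were prepared together, and the labels do not say. From CPM in place of RPKM, Psmb8 made up 0.121% of its pair with antibody and 0.148% without. Among the genes for which each alternative was written out (those named by the rule), 4 reversed sign in some fit, and none of the 4 was called in any. They were Psme2 (0.15) and Psme3 (-0.035) without replicates 1 and 4 of the arm without antibody, and, among fits without 1 library, Psme3 (-0.022 to 0.013), Psmf1 (-0.054 to 0.015) and Adrm1 (-0.00048 to 0.146). Other members also crossed 0, since negative values numbered 9 to 13 of 17 in the 19S particle and 11 to 13 of 14 in the core over all alternatives. The restriction to members with few shared windows was chosen after the data were seen. Psme2 and Psmg4, at under 5 CPM, had the widest intervals.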
